A study of Danio rerio with 40 samples.

Results

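The lens crystallin genes were followed in zebrafish brain RNA as the 32 genes whose symbol in the annotated gene table began with cryaa, cryab, cryba, crybb or cryg, out of 25806 genes in that table and 32520 in the count tables. They comprised 3 alpha crystallin genes, 13 beta crystallin genes (7 of the beta A and 6 of the beta B type) and 16 gamma crystallin genes. All 32 had at least 1 count in at least 1 brain, which their place in the annotated table required. Genes of that table had at least 10 rounded counts over the 40 fish. A further 24 crystallin IDs outside it had at most 9 counts each, and 14 of them had none. None of the 32 reached 10 counts in every brain, and the share of all genes that did was not computed. Gamma crystallin reads were found at low counts in nearly all brains of both sexes. Only 6 of the 32 genes could be tested between females and males after a filter on low counts. Of these 0 were called, as were 0 of all 16875 genes tested.

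Brains came from 40 adult wild-type (WT) fish of the AB strain, approximately 1 year old, of which 20 were female and 20 male. Per the labels, 10 fish of each sex received the Control diet, standard dry feed, and 10 received 60% GA (Gum Arabic, a tree exudate rich in dietary fibre, mixed into the dry feed by weight), each for 2 weeks. Both groups also ate live Artemia, and females and males shared tanks. The columns of the count tables carry a fish name (i and a number, as in i94) and are split into a table of females and a table of males, but no column name gives the diet, so the crystallin genes are compared here between Female and Male with both diets together, and Control and 60% GA were not compared.

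Crystallins are the soluble proteins that fill the cells of the lens and give it its refractive power. The alpha crystallins belong to the small heat shock proteins and act as chaperones that keep other proteins from aggregating, whereas beta and gamma crystallins share a Greek key fold and are mainly structural. Fish lenses are rich in gamma M crystallins, a methionine-rich class encoded in zebrafish by many near-identical genes. Some crystallins are also made outside the lens. Of the alpha B pair in zebrafish, cryaba is known mainly from the lens and cryabb from many tissues, and beta A1 crystallin has been described in astrocytes of rodents.

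The libraries held between 9392146 and 19131418 estimated counts, and between 15540 and 22741 genes had at least 1 count. In 6 fish, females i7, i94 and i119 and males i28, i81 and i99, fewer than 18000 genes were counted (15540 to 17146, against 18656 to 22741 in the other 34). These 6 fish are given beside many of the results they touch. Some highest counts below also lie in them without being marked, such as those of cryba1b and cryba2b in male i81. Brain markers were high in each fish, with 8 neuron genes summing to between 6767 and 10752 CPM (counts out of each 1000000 of a library, with library sizes adjusted by the trimmed mean of M values) and 8 glia genes to between 7015 and 28227 CPM. A count of 0 in a library allows up to 3 counts, which is 0.157 to 0.319 CPM before that adjustment, and such limits cover counting error only.

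The 32 crystallin genes together took 8773 of 554864830 counts, or 15.8 out of each 1000000 without adjustment of library sizes. Per brain they summed to 134, 232.5 and 487 counts (lowest, median and highest) in females and to 130, 192.5 and 384 in males, so the sexes overlapped. A brain held counts of between 8 and 24 of the 32 genes. Of the 1280 combinations of gene and fish, 673 had at least 1 count and 282 at least 10. Beta A genes supplied 51% of the crystallin counts, gamma M, MX and S genes 22%, beta B genes 13.8%, alpha genes 8.62% and gamma N genes 4.57%. In bulk tissue, fewer cells of a type and less RNA per cell cannot be told apart.

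**Figure D1:**
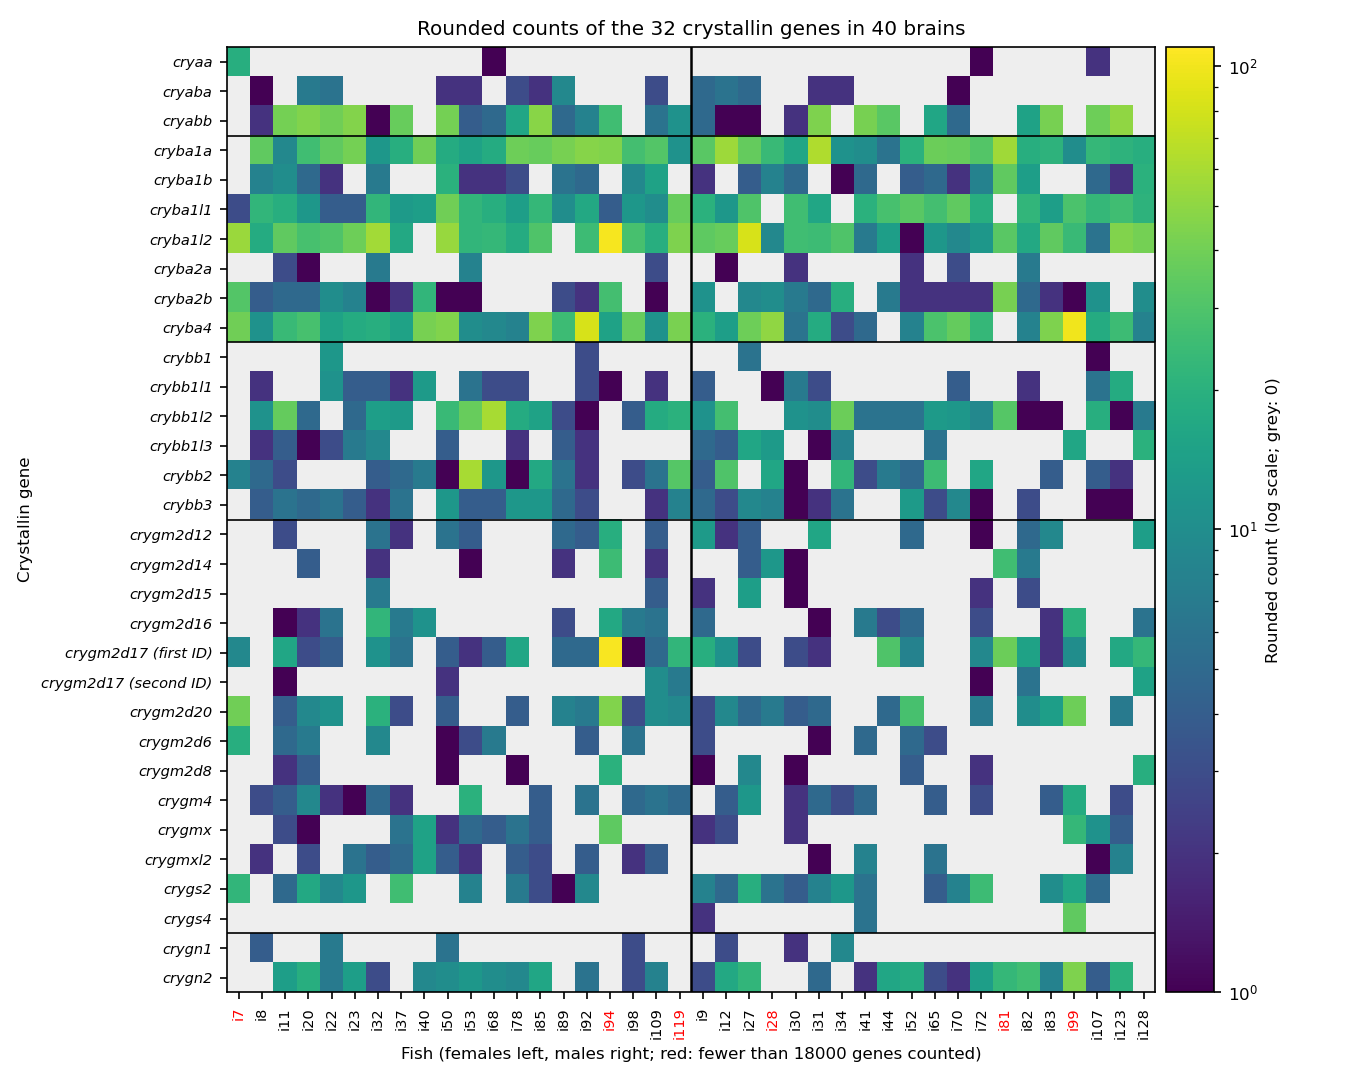
Rounded counts of each crystallin gene (rows, grouped as alpha, beta A, beta B, gamma M, MX and S, and gamma N) in each brain (columns, by fish number, with females left of the line), on a log colour scale, with grey for a count of 0. Beta A genes fill most columns, gamma genes are scattered, and 673 of 1280 cells hold at least 1 count.

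The number of fish in which a gene was counted varied widely within each class. Of the 32, 6 were counted in more than 30 of the 40 fish, namely cryba1a, cryba1l1, cryba1l2, cryba2b, cryba4 and crybb1l2, and 9 in 21 to 30 fish. Over all genes of the annotated table the median was 38 of the 40 fish. A further 10 were counted in 11 to 20 fish and 7 in 10 fish or fewer. A steady level, taken as at least 10 counts in every fish, was reached by 0 genes, and at least 1 count in every fish was also reached by 0. The share of all genes that pass these bars was not computed. The highest total of the 32 was 1143 counts over the 40 fish (cryba1l2). What part low level, depth and spread between fish have in this result was not tested. It is not read as a trait of crystallins. With at least 10 counts in at least 36 of the 40 fish asked for instead, 1 gene qualified, cryba1a. Without the 6 fish of low complexity, 1 gene (cryba1a) had at least 1 count in all 34 remaining fish.

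Among the alpha crystallin genes, cryabb (ENSDARG00000101380) carried nearly all of the counts. It reached 0, 9.5 and 48 counts in females and 0, 3.5 and 50 in males. All brains but that of female i94 fell on either side of a gap in counts, which was noticed after the values had been seen. On one side 13 fish, 7 females and 6 males, held 33 to 50 counts (2.35 to 3.89 CPM). On the other 26 fish, 12 females and 14 males, held 16 or fewer (at most 1.18 CPM, with 10 fish at 0). Only female i94, a fish of low complexity, lay between, at 26 counts (2.098 CPM). On the CPM scale it lay nearer to the 13 than to the 26, and it is counted with neither. The fish above the gap were females i11, i20, i22, i23, i37, i50 and i85 and males i31, i41, i44, i83, i107 and i123, and none of them was a fish of low complexity. Whether the gap follows diet or tank was not tested, because the columns name neither. All cryabb estimates were whole numbers. In the RefSeq annotation (assembly GRCz12tu, used for neighbours only), the gene span of cryabb overlaps hspb2 and cfap68. The methods name a directional library kit, but the sample sheet of the pipeline gives the libraries as unstranded, so reads of such overlapping genes cannot be told apart by strand.

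The other alpha crystallin genes were near the limit of detection, and their counts are given here although their values had been seen when they were picked. The lens-preferred paralogue cryaba was counted in 15 fish at up to 9 counts (56 in total), and 14 of those fish also held cryabb, against 16 with cryabb alone. For cryaa, the alpha A chaperone of the lens, 36 of 40 fish were at 0. Female i7 held 19 of its 23 counts and the remaining 3 fish held 1 or 2 each, so its presence above the floor rests on 1 fish of low complexity.

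Beta A genes came closest to a regular brain level. The most recurrent was cryba1a (ENSDARG00000041141), a beta A1 gene, with 0, 29 and 47 counts in females and 6, 22 and 63 in males. It was missing only from female i7 and reached 10 counts in 37 fish. Its coefficient of variation over the 40 fish was 51.8% of the mean CPM, the lowest among the 32 genes. Without the 6 fish of low complexity it was 48%, and that of cryba1l1 was lower, at 46.8%. Its gene span overlaps crybb1l3 and unc119a1. All 19 fish with crybb1l3 counts also held cryba1a. With cryba1a counted in 39 of the 40 fish, such overlap was nearly fixed in advance and tells nothing of shared reads. The second beta A1 gene, cryba1b (ENSDARG00000053875), was counted in 28 fish, at 0, 2.5 and 20 counts in females and 0, 4 and 35 in males. All 28 held cryba1a, with the same limit.

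Both cryba1-like genes were also widespread. Counts of cryba1l1 (ENSDARG00000032929) were 3, 14 and 40 in females and 0, 21.5 and 35 in males, and it was present in all 20 females and in 17 of 20 males. The 3 males at 0 included i28 and i81, both of low complexity. Counts of cryba1l2 (ENSDARG00000014803) were 0, 28 and 104 in females and 1, 24.5 and 82 in males, present in 18 females and in all 20 males. Its highest count lay in female i94, of low complexity, and its second highest in male i27, which was not. An estimate that is not a whole number (tolerance 5e-04) can come from reads shared out among similar transcripts. This held for 13 of 37 cryba1l1 values above 0, for 7 of 10 of cryba2a and 5 of 32 of cryba2b, but for 0 of 38 of cryba1l2 and for 1 value each of cryba1a, cryba1b and cryba4.

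The gene cryba4 (ENSDARG00000024548), which encodes an acidic beta crystallin, was present in all 20 females and in 18 males. Its counts were 8, 21.5 and 83 in females and 0, 18 and 99 in males. Male i99 stood far above the rest on the CPM scale, at 13.0 CPM, while the highest fish outside the 6 of low complexity reached 5.52 CPM. The beta A2 genes were thinner. For cryba2b (ENSDARG00000041925) there were 0, 2 and 31 counts in females and 0, 5 and 42 in males. Of the 6 fish of low complexity 5 were positive. The median over all 6 was 1.72 CPM, against 0.144 CPM over the other 34. Its paralogue cryba2a was counted in 10 fish at no more than 8 counts.

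The beta B genes, whose products pair with beta A crystallins in the lens, were each counted in 4 to 33 fish. The most recurrent was crybb1l2 (ENSDARG00000016793) with 0, 12 and 59 counts in females and 0, 8 and 38 in males, counted in 33 fish. It overlaps an uncharacterised locus. Counts of crybb2 (ENSDARG00000053512) were 0, 4.5 and 60 in females and 0, 3.5 and 30 in males, and it overlaps kazald3. Those of crybb3 (ENSDARG00000041301) stayed between 0 and 13 in every fish, with medians of 4 in females and 1.5 in males. For crybb1l1 (ENSDARG00000007576) the medians were 2 and 0 and the highest counts 13 and 18. At the low end, crybb1 was counted in 4 fish, with 12 of its 22 counts in female i22. The spread over fish of crybb1l2 was 99.7% of its mean and that of crybb2 143%, each wider than that of cryba1a.

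**Figure D2:**
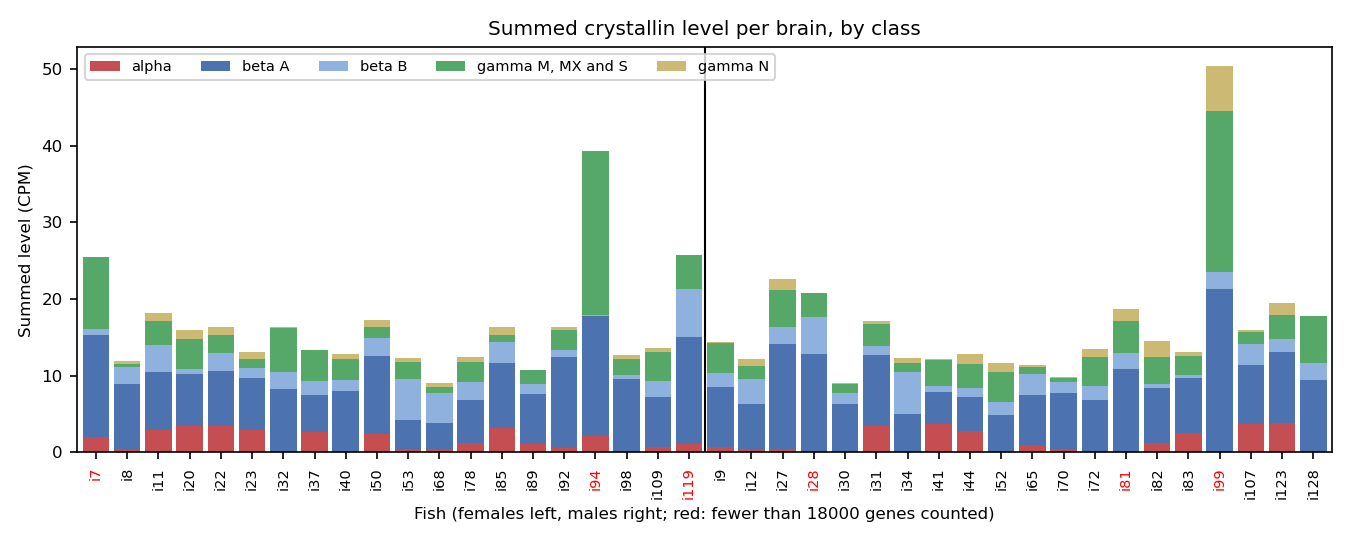
Summed CPM of the crystallin genes in each brain, stacked by class, with females left of the line and males right and the 6 fish of low complexity numbered in red. Male i99 (50.4 CPM) and female i94 (39.3 CPM) are the tallest bars, and their gamma segments are the largest.

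The 14 gamma M, MX and S genes (crygn genes are given apart) are known best from lens fibre cells. A summed count of at least 10 was taken as carrying them, and 38 of 40 fish did so, 19 females and 19 males. The exceptions were female i8, with 5 counts, and male i70, with 8. The summed counts were 5, 40 and 265 in females and 8, 39 and 161 in males, so that the medians differed by 1 count. Adjusted for library size, the sums were 0.444, 2.58 and 21.4 CPM in females and 0.477, 3.15 and 21.1 CPM in males. At a minimum of 3 counts all 40 fish qualified, at 1 CPM 35 did, and at 100 counts only female i94 and male i99 remained. These fish, both of low complexity, held 13.8% and 8.35% of all 1927 gamma M, MX and S counts. Among the other 38 fish the highest sum was 90, in female i7, also of low complexity. Without the 6 fish of low complexity, 32 of 34 carried gamma crystallins at 10 counts and 0 did at 100.

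Of these 14 genes, 9 are crygm2d IDs. Matched by symbol, the RefSeq annotation places them on 1 chromosome, with both IDs of crygm2d17 matched to the same entry. Whether the genes lie side by side was not checked. The first of the 2 IDs that share the symbol crygm2d17 (ENSDARG00000069817) was counted in 30 fish, at 0, 4.5 and 105 in females and 0, 5.5 and 38 in males. Its second ID (ENSDARG00000109861) was counted in 7 fish, all of which also held the first. Counts of crygm2d20 (ENSDARG00000091148) were 0, 4 and 45 in females and 0, 5 and 39 in males, in 27 fish. For crygm2d16 (ENSDARG00000076790), 19 fish were positive, at up to 22 counts in females and 20 in males. The remaining 5 crygm2d genes were counted in 7 to 18 fish each, at up to 26 counts. Of the 144 values above 0 of the 9 IDs, 2 were not whole numbers. The sequences of the 9 IDs were not compared here, so counts of a single copy remain uncertain.

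Female i94 and male i99 did not hold the same set of gamma genes. In female i94 the sum came from crygm2d17 (first ID, 105 counts), crygm2d20 (45), crygmx (34), crygm2d14 (25), crygm2d8 (20), crygm2d12 (19) and crygm2d16 (17), with the other 7 genes at 0. Male i99 held crygm2d20 (39 counts), crygs4 (35), crygmx (23), crygm2d16 (20), crygm4 (18), crygs2 (16) and crygm2d17 (first ID, 10), again with 7 at 0. Each thus had 7 of the 14 genes at 10 counts or more and 7 at none, while other fish spread fewer counts over as many as 10 genes (females i11 and i20, and male i9).

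Outside the crygm2d genes, crygm4 (ENSDARG00000008219) was counted in 24 fish at a median of 2.5 in either sex and at most 20. The gamma S gene crygs2 (ENSDARG00000041171) reached 0, 2 and 26 counts in females and 0, 5.5 and 25 in males, in 25 fish. Its counts were highest in female i37 and male i72, neither of low complexity, but its CPM was highest in female i7 (2.29 CPM, against 1.88 in i37) and male i99 (2.099 CPM, against 1.79 in i72), both of low complexity. Of its 25 values above 0, 23 were not whole numbers. The gene crygmx (ENSDARG00000053862), with a gene span that overlaps an uncharacterised locus, was counted in 10 females and 6 males at up to 34 counts. The only member seen in 1 sex alone was crygs4 (ENSDARG00000010701), at 0 in all 20 females and counted in males i99 (35 counts), i41 (6 counts) and i9 (2 counts). It overlaps crygm3, and 35 of its 43 counts lay in that single fish of low complexity.

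The gamma N genes, which branch between the beta and gamma families, were present at low counts. Those of crygn2 (ENSDARG00000030411) were 0, 7.5 and 19 in females and 0, 6.5 and 44 in males, with 14 females and 16 males positive. Male i99 was again the highest. The paralogue crygn1 was counted in 7 fish at up to 9 counts.

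Low library complexity moved with where the high values lay. The highest count fell in 1 of the 6 fish of low complexity for 14 of the 32 genes (43.8%), beside 20.6% of the 25806 genes of the annotated table. On the CPM scale, which divides by library size, the highest level fell there for 21 of the 32 (65.6%), beside 37.4% of all genes. The shares over all genes were not matched for level, so whether other genes of low counts differ from the 32 was not tested. Gamma M, MX and S levels in these fish were 3.17, 6.90 and 21.4 CPM (lowest, median and highest), against 0.444, 2.58 and 6.12 CPM in the other 34. Beta levels were 13.0, 16.7 and 23.5 CPM against 4.98, 9.25 and 15.9 CPM. At the same time these fish held fewer crystallin genes, 8 to 14 against 10 to 24. They were picked for having few genes counted, so this was largely fixed in advance. The gamma M, MX and S share of the crystallin counts was 54.4% in female i94, 41.9% in male i99 and 36.7% in female i7, but 22.5%, 17.3% and 15.2% in male i81, female i119 and male i28, inside the range of 3.73% to 34.7% of the other 34. Pooled, it was 35.7% in the 6 fish, 23.5% without i94 and i99, and 18.4% in the other 34. The 3 fish sequenced on a second flow cell, as the column names give it (female i98 and males i28 and i65), had gamma sums of 17 to 25 counts, inside the range of 5 to 265 of the other 37. The part that complexity has in the high values was not tested.

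**Figure D3:**
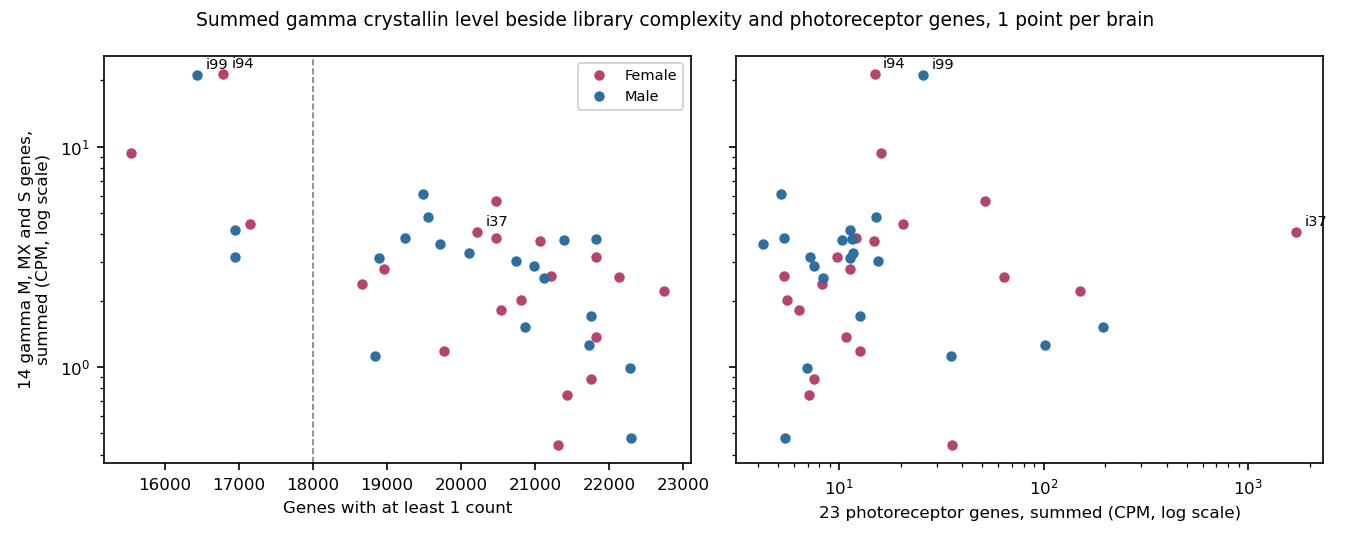
Summed CPM of the 14 gamma M, MX and S genes (log scale) in each brain against the number of genes with at least 1 count (left, with the dashed line at 18000) and against the summed CPM of 23 photoreceptor genes (right, log scale), for 20 females and 20 males. Female i94 and male i99 are highest on the vertical axis and lie left of the dashed line, while female i37, with 1718 CPM of photoreceptor genes, had 4.11 CPM of gamma crystallins.

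Markers of other eye and head tissue were read beside the crystallins. The 23 photoreceptor genes summed to 5.38, 12.4 and 1718 CPM in females and 4.25, 11.3 and 194 CPM in males, and none of them was counted in all 40 fish. Female i37 held the most, led by rho (523 CPM), the rod opsin, arr3a (187 CPM), a cone arrestin, and gngt1 (174 CPM), a rod transducin subunit. Its crystallin sum of 13.4 CPM ranked 23rd of 40 and its gamma sum of 4.11 CPM 9th. Next in photoreceptor genes came male i107 (194 CPM) and female i53 (150 CPM), with gamma sums that ranked 31st and 27th. Female i94 and male i99, with the highest gamma sums, held 14.9 and 25.8 CPM of photoreceptor genes. The 9 genes listed for pigment cells ran from 3.96 to 33.9 CPM per fish, with the highest single levels in rlbp1b, rpe65a and pmela. The median of rlbp1b alone was 4.55 CPM, beside 9.57 CPM for the sum of the 9. Which cells its RNA came from was not tested, so the sum is not a measure of pigment cells alone. The 8 genes of cornea and surface epithelium ran from 14.6 to 16286 CPM. The top fish was male i128, led by the keratins krt5 (7540 CPM), krt91 (6336 CPM) and krt97 (2039 CPM), and its gamma sum of 6.12 CPM ranked 4th. In this list krt4 and lum were also highest in i128. The rest peaked elsewhere, kera in female i37 (7.14 CPM), tgfbi in female i68 (25.0 CPM) and aldh3a1 in male i34 (9.40 CPM). The second highest in epithelial genes, male i82 (1107 CPM), had a gamma sum of 3.62 CPM, which ranked 15th. The third highest, female i8 (918 CPM), had the lowest gamma sum of all, 0.444 CPM.

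Lens genes other than crystallins were mostly low as well. Of 23 listed, 21 were found by symbol, and they summed to 58.7, 182 and 443 CPM in females and 64.1, 209 and 425 CPM in males. Most of this was mafba, a transcription factor of many tissues (median 163 CPM), followed in median level by prox1a (12.8 CPM), also a regulator outside the lens. The fibre membrane gene lim2.2 had a median of 4.91 CPM and reached 15.5 CPM in female i37. Genes of lens fibre cells differed among themselves. The beaded filament gene bfsp2 was counted in all 40 fish, at 0.126 to 2.91 CPM, and the membrane gene lim2.4 in 34 fish, at up to 2.38 CPM. The water channels mipa and mipb and the connexin genes gja3, gja8a and gja8b were counted in 25, 9, 5, 16 and 10 fish, at no more than 1.77 CPM in any. These 7 were named after their values were seen, and so were those that follow. The genes lim2.1, lim2.3 and lim2.5 were counted in 29, 16 and 8 fish, at up to 5.509, 1.835 and 2.098 CPM. Of the other listed genes, tdrd7a reached 10.288 CPM (21 fish), mafa 8.365 CPM (39 fish), pitx3 6.057 CPM (35 fish) and dnase1l1l 3.146 CPM (34 fish). The rest, hsf4, foxe3, grifin and birc7, stayed at 1.676 CPM or less. Of the 21 genes, 3 (bfsp2, mafba and prox1a) were counted in all 40 fish. What part RNA from eye tissue has in the crystallin counts was not tested.

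The comparison of Female with Male asked whether any crystallin gene differs in level between the sexes. Of the 32 genes, 6 passed the filter on low counts, namely cryabb, cryba1a, cryba1l1, cryba1l2, cryba4 and crybb1l2, and 0 of these 6 were called by edgeR's quasi-likelihood test at an adjusted p under 0.05. In the whole fit 0 of 16875 genes were called (0%), 376 had an unadjusted p under 0.05 (2.23%), and none of the 6 crystallin genes did. DESeq2, run without that filter on 27947 genes with all 32 crystallin genes among them, called 0 genes and 0 crystallin genes. At an unadjusted p under 0.05 it had 621 genes (2.22%) and 0 crystallin genes. Filtering leaves the abundant genes, so the 6 tested in edgeR are not representative of the 32.

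In cryba1a the mean level was 1.94 ± 1.04 CPM (SD, n = 20) in females and 1.97 ± 1.01 CPM (SD, n = 20) in males. The log2 fold change of Female over Male was -0.024 (SE 0.306, 95% interval -0.64 to 0.59), which leaves room for a difference of that size in either direction. For cryba1l1 the means were 1.14 ± 0.825 and 1.53 ± 0.925 CPM (SD, n = 20 each) and the log2 fold change was -0.42 (SE 0.41, interval -1.24 to 0.41). This was the lowest value of the 6, and 4 of the 6 were above 0. Females averaged 2.397 ± 1.97 CPM of cryba1l2 and males 1.84 ± 1.32 CPM, a log2 fold change of 0.38 (SE 0.42, interval -0.47 to 1.22) that turned to -0.039 without the 6 fish of low complexity. Levels of cryba4 averaged 2.00 CPM in both sexes (SD 1.43 in females and 2.95 in males), and the log2 fold change of 0.012 (interval -0.94 to 0.96) became 0.51 without male i99 alone and 0.54 without the 6 fish. The fold change was 0.21 (interval -1.21 to 1.63) in cryabb, which became 0.023 without the 6 fish, and 0.33 (interval -0.82 to 1.47) in crybb1l2. All 6 had an adjusted p of 0.9999 in edgeR, with Benjamini-Hochberg adjustment over all 16875 genes.

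**Figure D4:**
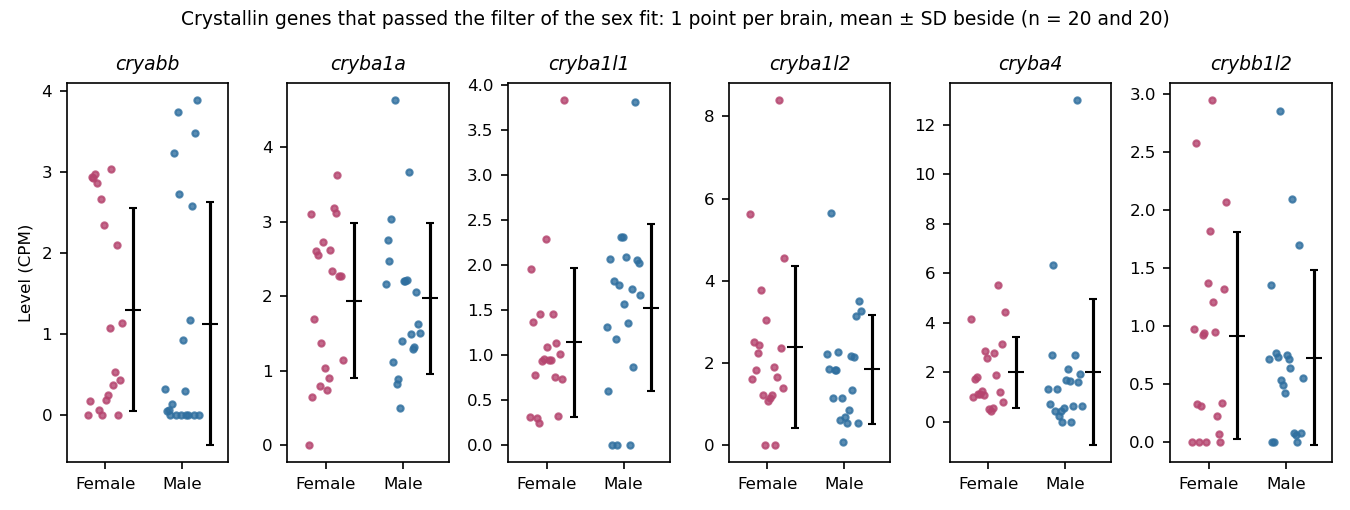
CPM of the 6 crystallin genes that entered the sex test, 1 point per brain, with the mean and SD beside each group of 20. In each gene the points of females and males overlap. In cryabb 13 brains lie at 2.35 CPM or more and 26 at 1.18 CPM or less. Female i94 lies between, at 2.098 CPM, nearer to the 13 than to the 26.

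**Figure D5:**
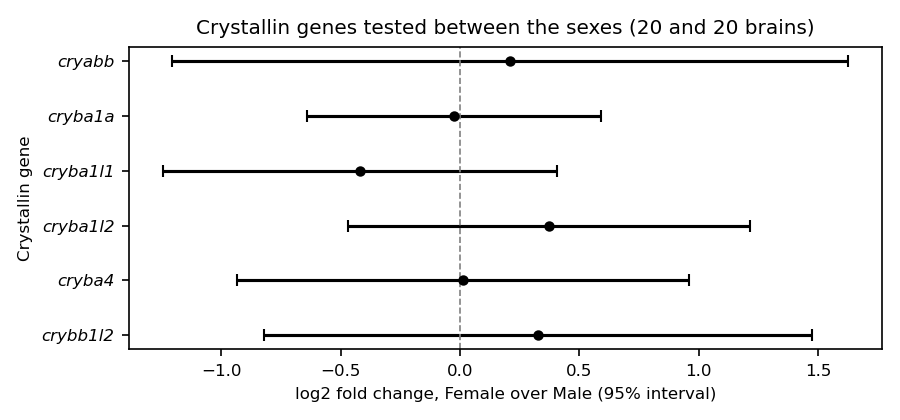
Log2 fold change of Female over Male for the same 6 genes from edgeR's quasi-likelihood fit, with 95% intervals (20 females and 20 males). All 6 intervals include 0, with that of cryba1a the narrowest (-0.64 to 0.59) and that of cryabb the widest (-1.21 to 1.63).

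Spread between fish was larger in these genes than in most others. Their biological coefficient of variation ran from 0.578 (cryba1a) to 1.54 (cryabb), with a median of 0.887 against 0.489 over all genes tested, and 58% of the genes tested had a lower value than cryba1a. Genes of like level were not set apart. Whether the crystallin genes vary more than other genes of low counts was therefore not tested. The median log2 fold change of the crystallin genes tested was 0.11, beside -0.003 over all genes tested. Without a filter on low counts all 32 genes could be fitted. Then 0 were called and 2, cryaa and crygs4, had an unadjusted p under 0.05, beside 9.75% of all 27947 genes in that fit. Both rest on 1 fish each, female i7 and male i99.

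The small heat shock protein genes, relatives of the alpha crystallins, were counted in 6 to 40 fish each. Of 9 found by symbol, 4 were counted in all 40 fish and 5 were missing from some (hspb9 counted in 6 fish, hspb11 in 23, hspb2 and hspb3 in 29 each and hspb7 in 36). The highest single levels were those of hspb15 (5.77, 29.9 and 65.7 CPM over fish), hspb6 (6.57, 18.3 and 35.3 CPM) and hspb1 (0.520, 13.1 and 25.7 CPM). In the same sex fit 0 of the 6 that were tested were called, and 0 had an unadjusted p under 0.05. Of 6 crystallin-like genes outside the 32, 4 were counted in all 40 fish. Of these, crybg1b, a relative with beta and gamma crystallin domains, ran from 2.43 to 101 CPM, and the metabolic enzymes cryz and cryzl1 from 7.09 to 34.3 and from 10.8 to 35.7 CPM. In the sex fit 0 of these 6 were called, and 0 had an unadjusted p under 0.05. None of the photoreceptor (6 tested), pigment cell (3), epithelium (7), lens (7), neuron (8) or glia genes (8) were called either. At an unadjusted p under 0.05 there were 5 photoreceptor genes and 5 epithelium genes, which became 0 of 4 without female i37 and 1 of 7 without male i128.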

How the data were processed

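The authors sequenced poly-A RNA and, per the methods, used the nf-core/rnaseq pipeline with the GRCz11 genome of Ensembl. The deposited estimated counts per gene (salmon) were rounded to whole numbers. From the authors' annotated table only symbols, biotypes and the mean normalised count (recorded as a score) were used. Its fold changes, standard errors and p-values of the authors' own comparison were not. Sex was taken from the table a column stands in. The members and gene lists were chosen with earlier results of these data known. Named genes were those with a median above 0 CPM and the 15 with the highest level in any 1 fish. Of each list, the 3 genes with the highest level in any 1 fish were named. Other genes named were picked after their values were seen.

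Female and Male were compared with edgeR 4.0.16 (quasi-likelihood test, TMM normalization, filterByExpr, Benjamini-Hochberg adjustment over all genes, called under 0.05, direction Female over Male) in R 4.3.3. The fit was tested on simulated data in which only genes of higher counts were changed. Recovery of a change at the level of most crystallin genes was therefore not tested. DESeq2 1.42.0 was an alternative, beside RLE normalization, other filters, robust dispersions, other count minimums and each fish left out. Leaving out the 6 fish under 18000 genes or the 3 fish of the second flow cell, and flow cell as a term, were added after seeing the data. No 2 of the 780 pairs of fish agreed within sampling noise (smallest chi-square per degree of freedom 18.3). Fish are taken as separate animals, and tanks, which fish shared, were not modelled. Depth was 9392146 to 19131418 counts per library. No sequences are shown. RefSeq (GRCz12tu) served for gene neighbours only.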

Additional observations from a re-analysis of the deposited data

How the results depend on the processing

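The number of genes called between the sexes was 0 under 7 of 8 alternatives and 13 with no filter on low counts, and it stayed at 0 in all 40 fits that left out 1 fish. The number of crystallin genes called was 0 in each of those fits. Carriers of gamma crystallins fell from 38 to 2 fish at a summed count of at least 100. Steady genes rose from 0 to 1 with at least 10 counts in at least 36 of 40 fish. Of the fold changes, which were not called anywhere, that of cryba4 turned to -0.003 with DESeq2 and with RLE normalization and ran from -0.13 to 0.51 with each fish left out. That of cryba1a turned to 0.107 without the 6 fish under 18000 genes, 0.015 without the 3 fish of flow cell HNHC3DSX5 and 0.001 with flow cell as a term, and ran from -0.092 to 0.081 with each fish left out. That of cryba1l2 turned to -0.039 without the 6 fish. The cause was not tested. The directions of cryabb, cryba1l1 and crybb1l2 held under all 8 alternatives and all 40 fits, but their sizes moved. That of cryabb fell from 0.21 to 0.023 without the 6 fish and to 0.063 with flow cell as a term. With each fish left out, cryabb ran from 0.105 (without female i85) to 0.41 (without male i123), crybb1l2 from 0.148 (without female i68) to 0.56 (without male i34), cryba1l2 from 0.17 (without female i94) to 0.54 (without male i27) and cryba1l1 from -0.60 (without female i119) to -0.30 (without male i99). No paired analysis was possible because each column carries a fish number and no replicate number that the labels share. Counts under 10 per fish, which make up most values of the gamma genes, limit what could be detected in a single brain.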

Other observations

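Crystallin genes outside the annotated table were looked up by symbol in the count tables. There were 24 such IDs, of which 14 had no count in any fish and the other 10 summed to 39 counts, with at most 9 in any 1. Genes inside the annotated table had at least 10 rounded counts over the 40 fish and those outside at most 9, so the 32 genes described are those above that line among 56.

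The authors' mean normalised count was within 0.01% of the mean computed here from the count tables for 27 of the 32 genes. For 5 it was lower, namely crygs4 (0.219 against 1.84), cryaa (0.101 against 0.789), crybb1 (0.225 against 0.517), crygmx (1.57 against 3.57) and crygm2d8 (1.07 against 1.62). In these 5 a single fish held between 27.2% and 82.6% of the counts, as 1 fish also did in 3 of the 27 others, crygm2d15 (42.4%), crygm2d17 (second ID, 35.7%) and crygm2d14 (30.2%).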
